A study of Mus musculus with 19 samples.

Results

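Keratin genes were followed through tumours grown under the skin or in the eye from Melan-a cells, and through the cultured cells themselves. The members are all genes whose symbol is Krt with a number and at most 1 letter. There were 53 of them, 28 type I and 25 type II, among 32285 genes listed in any of the 4 single-cell matrices, and all 53 were listed in all 4. The bulk table of cultured cells, with 13202 genes, held 5 of them. Melan-a is an immortalised line of mouse melanocytes, and CRISPR editing of Bap1, which encodes a deubiquitinase of nuclear proteins, gave the knockout clones. The groups of cultured cells were knockout clones 1, 2, 3 and 4 and the unedited parental (BAP1 WT) cells, with 2 cultures each and no drug or chemical treatment. Each knockout line is a single clone, and an edited clone with intact Bap1 was not analysed here. Tumours came from knockout or wild-type Melan-a cells placed under the skin or into the eye of syngeneic mice, whose age the labels do not state. They were profiled in 1 matrix each, labelled KO skin, WT skin, KO ocular and WT ocular. Genotype and site rest on those matrix names alone, the labels do not say which clone formed the KO tumours, and with 1 matrix a group no difference between matrices has a replicate check.

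Keratins form the intermediate filaments of epithelial cells. A type I and a type II keratin pair to build the filament, and the pair in use tells the layer and the site: Krt5 with Krt14 in the basal layer of stratified epithelia, Krt1 with Krt10 above it in skin, Krt4 with Krt13 in moist linings such as the conjunctiva, and Krt8 with Krt18 in simple epithelia. Krt12 is the type I keratin of the corneal epithelium, and Krt71 with Krt25 to Krt28 belongs to the inner root sheath that guides a growing hair. Melanocytes are not epithelial, and vimentin builds their filaments instead.

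The genes lay in 2 blocks of GRCm38. The block on chromosome 11, from 99232761 to 100269951, held 27 members, all type I. That on chromosome 15, from 101348315 to 102032026, held 26, which were the 25 type II members and the type I gene Krt18. Promoters of 4 members that mark different sites are shown because the results below turn on them. Each run gives the 250 bases before a transcription start listed in RefSeq's promoter table with GRCm38.p6, read 5′ to 3′ on the minus strand. For Krt12 that start lies inside the gene's full span, which ends at 99422593, and for the others it is the outer end of the gene. They are Krt12 of the cornea (chr11:99422260-99422509), Krt5 of the basal layer (chr15:101712906-101713155), Krt13 of wet epithelia (chr11:100121567-100121816) and Krt71 of the hair's inner root sheath (chr15:101743098-101743347). Capitals mark a TATA-like box, ATAAANG, and in Krt13 also TGANTCA, a loose form of the AP-1 motif. The strict AP-1 motif has C or G at the centre, where the marked stretch of Krt13 has A.
Krt12: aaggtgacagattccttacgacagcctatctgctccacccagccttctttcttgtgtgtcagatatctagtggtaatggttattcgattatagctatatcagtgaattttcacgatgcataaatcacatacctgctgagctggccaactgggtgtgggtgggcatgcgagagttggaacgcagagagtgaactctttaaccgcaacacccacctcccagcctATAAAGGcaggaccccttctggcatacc
Krt5: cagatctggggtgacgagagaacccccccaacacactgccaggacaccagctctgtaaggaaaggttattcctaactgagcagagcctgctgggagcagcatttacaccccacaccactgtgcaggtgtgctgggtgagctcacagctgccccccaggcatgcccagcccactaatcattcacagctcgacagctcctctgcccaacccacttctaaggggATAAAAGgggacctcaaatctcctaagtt
Krt13: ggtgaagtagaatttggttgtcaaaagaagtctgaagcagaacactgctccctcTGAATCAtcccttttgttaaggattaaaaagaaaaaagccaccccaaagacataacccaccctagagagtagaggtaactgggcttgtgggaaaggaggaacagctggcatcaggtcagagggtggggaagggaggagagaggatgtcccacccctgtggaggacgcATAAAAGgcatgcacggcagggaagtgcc
Krt71: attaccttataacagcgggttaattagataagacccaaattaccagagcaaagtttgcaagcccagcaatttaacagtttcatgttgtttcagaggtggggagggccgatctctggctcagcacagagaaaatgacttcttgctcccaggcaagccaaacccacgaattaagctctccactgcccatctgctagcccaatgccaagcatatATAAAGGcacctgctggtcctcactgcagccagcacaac
The box ended 21 bases before the start in Krt12, 22 in Krt5 and Krt13, and 32 in Krt71. Of 37 keratin promoters in the table, from 36 members, 17 (45.9%) held ATAAANG within 50 bases of the start on either strand, against 3.02% of all 32841 promoters. The box written TATAAA, whose letters overlap it, was within those 50 bases in 15 keratin promoters (40.5%) and in 3.50% of all. The loose letters TGANTCA stood in the 250 bases of 2 keratin promoters, both of Krt13, which has 2 listed starts, and in 6.75% of all promoters. The motifs were chosen after the sequences had been read, so these shares are descriptions. A match of letters is not a bound site.

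After cells with fewer than 500 UMIs, fewer than 200 genes or more than 20% mitochondrial UMIs were left out, the matrices held 13111 (KO skin), 11682 (WT skin), 9398 (KO ocular) and 26168 (WT ocular) cells. Their median UMIs per cell were 4111, 4111.5, 5743 and 2055 in that order. The matrix labelled WT ocular came from another assay: its barcodes had 16 bases where those of the other 3 had 24, and it listed 32285 genes where they listed 19059. No fold is therefore drawn across that border. The matrices shared 0 full barcodes. Among the 3 alike ones each pair had 1793 to 2417 barcodes with the same first 16 bases. Melanocytic markers (3 or more of Pmel, Mlana, Tyr, Tyrp1 and Dct) were found in 94.9%, 91.0%, 81.7% and 73.8% of the cells. Cells passing the immune gate (3 or more of Ptprc, Cd53, Laptm5, Coro1a and Rac2) mostly passed it too, 1608 of 1925, 2359 of 2892, 1431 of 2605 and 470 of 819. In the bulk table Bap1 had 359 to 1193 normalised reads in the 8 clone cultures, against 4392 and 4449.7 in the parental ones. Bap1 did not separate the matrices the same way: its UMIs in melanocytic cells, scaled to their total UMIs (CPM), were at 47.2 (KO skin), against 42.0 (WT skin), and 33.2 (KO ocular), beside 6.04 in the other assay (WT ocular). The sources used here do not say where the edits and the Bap1 probes lie, so the matrices are called by their labels throughout.

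Epithelial cells, here cells with a UMI of 3 or more of the junction and basal genes Dsp, Perp, Trp63, Dsg3 and Cdh1, numbered 0 of 13111 in the matrix labelled KO skin, which allows a share of up to 0.0229% (3 counts of the total). They numbered 48 of 11682 (0.411%) in that labelled WT skin, 34 of 9398 (0.362%) in KO ocular and 397 of 26168 (1.52%) in WT ocular. Within the gate the markers were unevenly found: Trp63 in 70.8%, 26.5% and 45.1% of the cells of WT skin, KO ocular and WT ocular, Dsg3 in 31.3%, 79.4% and 67.5%, and Perp in 94.0% or more. Single markers also occurred in melanocytic cells outside the gate. Cdh1 was in 5.94% (KO skin), 9.17% (WT skin), 6.47% (KO ocular) and 4.44% (WT ocular) of them. Dsp and Perp were in 12.5% and 12.7% of those labelled WT ocular, and in at most 2.76% in each other matrix. The keratins of the gated cells differed by matrix. Of the 53 members 40, 27 and 27 had a UMI in the gated cells of WT skin, KO ocular and WT ocular, and 26, 20 and 16 had 10 or more. Over all kept cells the numbers with 10 or more were 17 (KO skin), 38 (WT skin), 24 (KO ocular) and 23 (WT ocular). Basal and stress keratins were found in the gated cells of all 3. Beside them stood epidermal and hair sheath keratins in the WT skin matrix. In the KO ocular one they were wet-epithelium and simple-epithelium keratins, and in the WT ocular one the corneal Krt12. As CPM, the UMIs of a gene scaled to the total UMIs of the same cells, all 53 keratins summed to 6110 CPM (95% interval 5927 to 6297) in the epithelial cells labelled WT skin, 31251 (30917 to 31587) in KO ocular and 16318 (16156 to 16482) in WT ocular. The intervals are exact Poisson intervals and cover counting error only, and the gate moved the levels further. With 2 markers they were 1476, 10297 and 6195, and without cells in another gate 16217, 32762 and 27733. Without the top 5% of cells by UMIs that of WT skin was 11727. Many of these cells also carried melanocytic markers, 44 of 48, 22 of 34 and 276 of 397. No doublet caller was run, and the part of doublets or free RNA in these mixed cells was not tested. UMIs were not scaled by gene length or by probe, so values of different keratins are given side by side as amounts of UMIs and not as a ranking of transcripts.

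**Figure D1:**
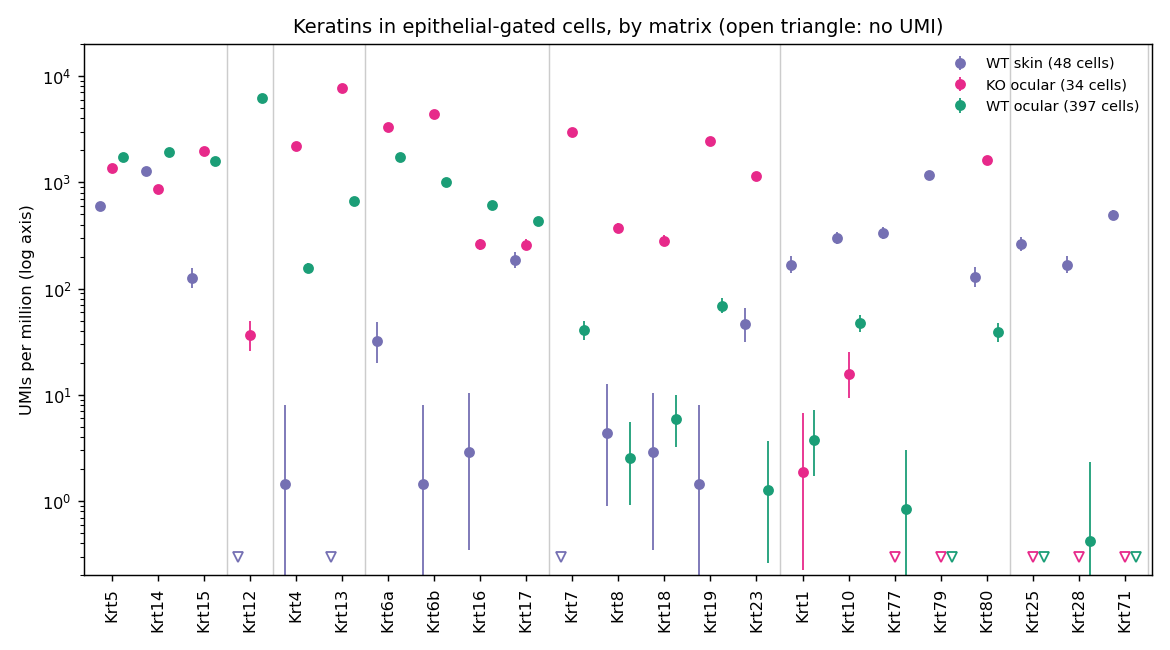
CPM (log axis) of the named keratins in epithelial-gated cells of the matrices labelled WT skin (48 cells), KO ocular (34 cells) and WT ocular (397 cells), with exact Poisson 95% intervals. Grey lines part the keratin groups, open triangles mark keratins with no UMI, and the KO skin matrix had no such cells. Krt12 stands at 6218 in WT ocular and has no UMI in WT skin, while Krt71 and Krt79 have UMIs in WT skin only among these 3 sets of cells.

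The matrix labelled KO skin held almost no epithelial keratin. Its keratin UMIs came to 5076, against 11103 in that labelled WT skin, at total depths of 91.2 and 88.8 M UMIs. Krt80 alone gave 4038 of the 5076, which is 79.6%, and Krt10 another 541. The basal pair Krt5 and Krt14 had 2 and 5 UMIs in the whole KO skin matrix, against 673 and 1071 in the WT skin matrix. Krt71 of the inner root sheath had 12, against 496, and Krt79, a keratin of the follicle opening and sebaceous duct, had 10, against 894. No cell labelled KO skin held more than 23 keratin UMIs, against up to 543 in one cell labelled WT skin. With a laxer gate of 2 markers, 13 cells passed in KO skin, against 140 in WT skin. With 1 matrix each, the piece of tissue taken and the genotype cannot be told apart.

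The 48 epithelial cells labelled WT skin showed the layers and appendages of skin. Basal keratins held 32.8% of their keratin UMIs: Krt14 had 882 UMIs in 29 cells (1277 CPM, 1194 to 1365), Krt5 413 in 30 cells (598, 542 to 659) and Krt15, also of basal cells and the follicle bulge, 87 in 20 cells. Krt5 and Krt14 were found together in 25 cells. Keratins grouped under upper layers held 34.3% (1448 UMIs), but 800 of these, in 14 cells, were Krt79 (1159 CPM, 1079.7 to 1242). As a keratin of the follicle opening and sebaceous duct it does not mark the upper epidermis, so the share is not one of epidermal layers alone. Next in the group were Krt77 with 232 in 10 cells, Krt10 with 207 in 20 cells and Krt1 with 116 in 10 cells. Of the 10 cells with Krt1, 9 also held its partner Krt10, and of the 14 cells with Krt79, 13 held Krt14.

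Hair keratins were present as well. All 7 listed members of the inner root sheath were detected and together held 22.9% of the keratin UMIs in the WT skin epithelial cells. The type II member Krt71 had 340 UMIs in 16 cells (492 CPM, 441 to 548), and its type I partners Krt25, Krt28 and Krt27 had 181, 116 and 106 UMIs in 12, 8 and 8 cells. Krt71 and Krt25 shared 10 cells. Krt71 and Krt79, found in 16 and 14 of the 48 cells, shared 3, and no separation is read from this count. Of the 15 hair shaft keratins 13 had a UMI, but they gave 3.89% of the total. Stress and follicle companion keratins gave 5.21%, of which Krt17 had 129 UMIs in 21 cells. Krt12, Krt13 and Krt7 had no UMI in these cells, and 3 counts there would be 4.34 CPM. Only 4 of the 48 cells passed no other gate. In these Krt79 stood at 4592 CPM and Krt5 at 3301, against 144 for Krt71 and 0 for Krt28, all from few UMIs. Krt5, Krt79 and the hair sheath keratins alike were therefore measured mainly in cells that also carried melanocytic or immune markers.

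A few cells carried much of this signal. In the whole WT skin matrix 3 cells held 50% or more of the Krt14 UMIs, 2 held as much of Krt71 and 2 of Krt79, while Krt5 needed 14. The highest single cells had 270 UMIs of Krt14, 171 of Krt71 and 263 of Krt79. Genes that work beside these keratins were present in the same gate. Tchh, which encodes the trichohyalin of the inner root sheath, had 1396 UMIs in 15 cells. Sbsn and Dmkn, of the upper epidermis, had 671 UMIs in 29 cells and 187 in 26 cells. Flg, the filaggrin gene, had 165 in 6 cells, and Col17a1, a collagen of hemidesmosomes, had 94 in 20 cells. All 15 genes of the cornification list and 7 of 8 of the hair follicle list were detected, but detection was not particular to the gate: the melanocytic cells labelled KO skin had a UMI of all 15 and all 8. Levels differed between the classes, with Tchh at 2022 CPM in the gate of WT skin and at 46.2 (KO skin) and 2.54 (WT skin) in melanocytic cells. Sbsn stood at 972 CPM in the gate and at 27.8 (KO skin) and 15.8 (WT skin) in melanocytic cells. A further 13 cells outside the gate held 1% or more of their UMIs in keratins, a threshold chosen after the values had been seen. Of the 13, 10 passed the melanocytic gate and 3 no gate. The 13 cells were shallow, with a median of 844 UMIs, and upper-layer keratins made up 47.3% of their keratin UMIs. Lor, the gene of the cornified envelope protein loricrin, had 826 UMIs in 3 of them.

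The matrix labelled KO ocular held the highest keratin counts of single cells in the series. Its 34 epithelial cells were led by Krt13, with 8188 UMIs in 23 cells (7642 CPM, 7478 to 7810), and its wet-epithelium partner Krt4 had 2347 in 25 cells (2191, 2103 to 2281). Wet-epithelium keratins held 31.5% of the keratin UMIs, stress and companion keratins 26.6%, simple-epithelium keratins 23.1%, basal keratins 13.4% and upper-layer keratins 5.26%, nearly all of it Krt80. Krt13 was the most abundant keratin of 14 cells, Krt6a of 6, Krt5 of 4 and no cell was led by Krt12. Krt13 and Krt4 were found together in 20 of the 34 cells, and Krt13 and the basal Krt5 in 19. Counted singly, Krt13 was in 23 cells, Krt4 in 25 and Krt5 in 27, and no joint use is read from these counts.

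Among the stress keratins, which are raised in wounded or fast-dividing epithelia, Krt6b had 4748 UMIs in 27 of the KO ocular epithelial cells and Krt6a 3569 in all 34. Their type I partners Krt16 and Krt17 had 279 and 278 UMIs, each in 22 cells. The simple-epithelium members were Krt7 with 3187 UMIs in 24 cells, Krt19 with 2593 in 23 and Krt23 with 1237 in 17. Krt80 had 1726 in 25 cells (1611 CPM, 1536 to 1689). Basal Krt15, Krt5 and Krt14 had 2099, 1470 and 928 UMIs in 26, 27 and 23 cells. Krt12 had 39 UMIs in 9 cells (36.4 CPM), each of which also held Krt5. In the whole matrix Krt12 had 179 UMIs in 29 cells, with 108 of them in 1 cell. Apart from Krt80, keratins of the upper layers of skin and of the inner root sheath were low: Krt71, Krt77 and Krt79 had no UMI, Krt1 had 2 and Krt10 17, and 3 counts would be 2.80 CPM. In the 11 cells that passed no other gate Krt13 stood at 6459 CPM and Krt4 at 1639.

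The companions of these cells were genes of mucous surfaces. Muc4, a membrane-bound mucin, had 21555 UMIs in 26 cells, and Muc5ac, the secreted mucin of goblet cells, had 2982 in 5 cells. Elf3, a transcription factor of epithelia, had 2538 in 28 cells, Sprr1a, a precursor of the cornified envelope, had 2744 in 19, and Upk1b, a uroplakin, had 1168 in 16. Aldh3a1, an enzyme abundant in the cornea, had 970 in 24 cells, while Lypd2 and Slurp1 had none.

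Most keratin-rich cells labelled KO ocular lay outside the gate. Of 81 cells with 1% or more of their UMIs in keratins, 26 were in the gate and 55 were not, and the 81 held 83.8% of the matrix's keratin UMIs. Of the 55, 27 passed the melanocytic gate, 3 both the melanocytic and the immune gate, and 25 no gate. The part of doublets or free RNA in them was not tested. The 55 had a median of 19247 UMIs, more than the 15813 of the gated cells. In them Krt13 led 27 cells with 9488 UMIs (8016 CPM), and Krt7 led 12 with 6470 UMIs (5466 CPM). Krt13 was found with Krt7 in 47 of the 55 and with Krt4 in 43. Counted singly, 52 of the 55 held Krt13, 48 Krt7 and 44 Krt4, and no joint use is read from these counts. Basal keratins were low, with 249 UMIs of Krt5 and 244 of Krt14. Of the gate markers, Perp was detected in 70.9% and Dsp in 43.6%, but Trp63, the transcription factor of basal cells, and Cdh1, the adhesion protein E-cadherin, in none. Muc4 was again high, with 46238 UMIs, while Muc5ac and Col17a1 had 3 each. Over the whole matrix 18 cells held 50% or more of all keratin UMIs, and the highest had 6759.

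**Figure D2:**
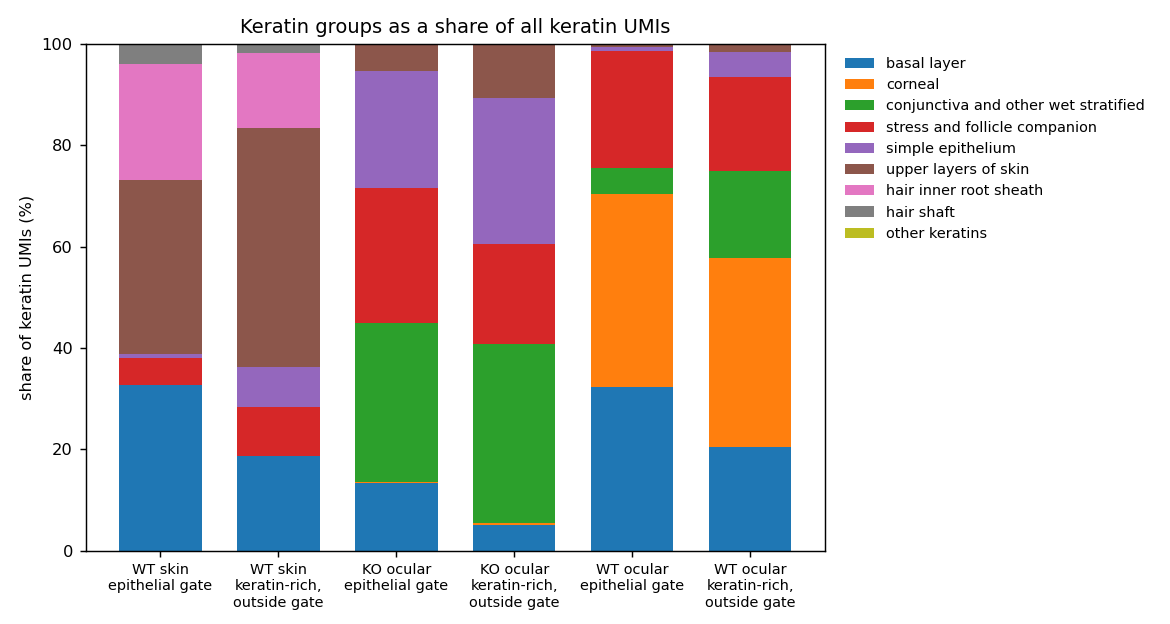
Share of keratin UMIs (percent, stacked bars) held by each keratin group in epithelial-gated cells and in keratin-rich cells outside that gate, for the matrices labelled WT skin, KO ocular and WT ocular. The corneal share (Krt12) is 0.116% in the KO ocular gate and 38.1% in the WT ocular gate, and the inner root sheath share is 22.9% in the WT skin gate and 0 in the KO ocular gate. The upper-layer group includes Krt79 of the follicle opening and sebaceous duct, which gives most of its UMIs in the WT skin gate.

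Krt8 and Krt18, the pair of simple epithelia, were found in some gated epithelial cells of the KO ocular matrix and in other cells. Of 46 cells with 4 or more marker genes of the pigment and ciliary epithelium of the eye, 35 held Krt8 and 36 Krt18, and 31 held both. Krt18 had 721 UMIs there (670.4 CPM, 622 to 721) and Krt8 553 (514 CPM, 472 to 559). In the 34 gated epithelial cells Krt8 had 400 UMIs in 10 cells and Krt18 303 in 5. Krt18 and Krt13 were found together in 1 cell, beside 23 of the 34 with Krt13. The 55 keratin-rich cells outside the gate had no Krt18 UMI, and 5 of them held Krt8.

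The 397 epithelial cells labelled WT ocular had the keratin pattern of cornea. Krt12 had 14729 UMIs in 333 cells (6218 CPM, 6118 to 6319), and it was the most abundant keratin of 222 of the 396 cells with any keratin UMI. Basal keratins followed, Krt14 with 4601 UMIs in 200 cells, Krt5 with 4127 in 342 and Krt15 with 3782 in 218. Krt12 was found in 292 of the 342 cells with Krt5 and in 158 of the 200 with Krt14, beside 333 of all 397 cells (83.9%), and no joint use is read from these counts. By group the corneal keratin held 38.1% of keratin UMIs, basal keratins 32.4% and stress keratins 23.2%, of which Krt6a had 4119 UMIs in 300 cells and Krt6b 2366 in 252. Krt16 and Krt17 had 1443 and 1016 UMIs in 100 and 108 cells. In the 120 cells that passed no other gate Krt12 stood at 11329 CPM.

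Wet-epithelium keratins were a smaller share of the WT ocular gate, 5.04%. Krt13 had 1581 UMIs in 196 cells (667 CPM, 635 to 701) and Krt4 369 in 88. Krt12 and Krt13 were found together in 165 cells, beside 333 of all 397 cells with Krt12, and no joint use is read from this count either. Simple keratins were low, with 164 UMIs of Krt19, 96 of Krt7, 14 of Krt18 and 6 of Krt8, and Krt71 and Krt79 had none. Among corneal companions Lypd2 had 6142 UMIs in 265 cells, Slurp1, a secreted protein of the ocular surface, 5852 in 244, Aldh3a1 3193 in 286 and Pax6, a transcription factor of eye development, 384. Muc5ac had none, and Muc4 had 294 UMIs in 93 cells. Of the 255 keratin-rich cells outside the gate, 139 passed the melanocytic gate, 1 the immune gate, 2 both and 113 none. Krt12 led 135 of the 255 and Krt13 led 58, and wet-epithelium keratins held 17.2% of their keratin UMIs. Krt13 had 1908 UMIs there (2866 CPM), against 6836 CPM for Krt12.

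Krt12 also reached every other cell class of the WT ocular matrix. In melanocytic cells that were not keratin-rich it had 226 CPM, in immune cells 432, in fibroblast-marked cells 245, in endothelial-marked cells 222.5 and in rod-marked cells 287. Its share of the keratin UMIs was 36.2%, 37.6%, 37.4%, 39.1% and 36.5% in those classes, against 38.1% in the epithelial gate. Krt14 held 7.08%, 7.04%, 7.33%, 7.83% and 6.41% there, against 11.9% in the gate. The levels in these classes are not told apart from background RNA or doublets, neither of which was tested. With each cell thinned to 1000 UMIs, Krt12 was found in 61.2% of epithelial cells (83.9% before thinning), against 25.5% of melanocytic cells (52.0% before). Krt5 was found in 69.0% of epithelial cells, against 13.6%, and Krt13 in 30.2%, against 3.70%. Without keratin-rich cells all 53 keratins summed to 626 CPM in melanocytic cells, and to 1148 in immune cells.

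**Figure D3:**
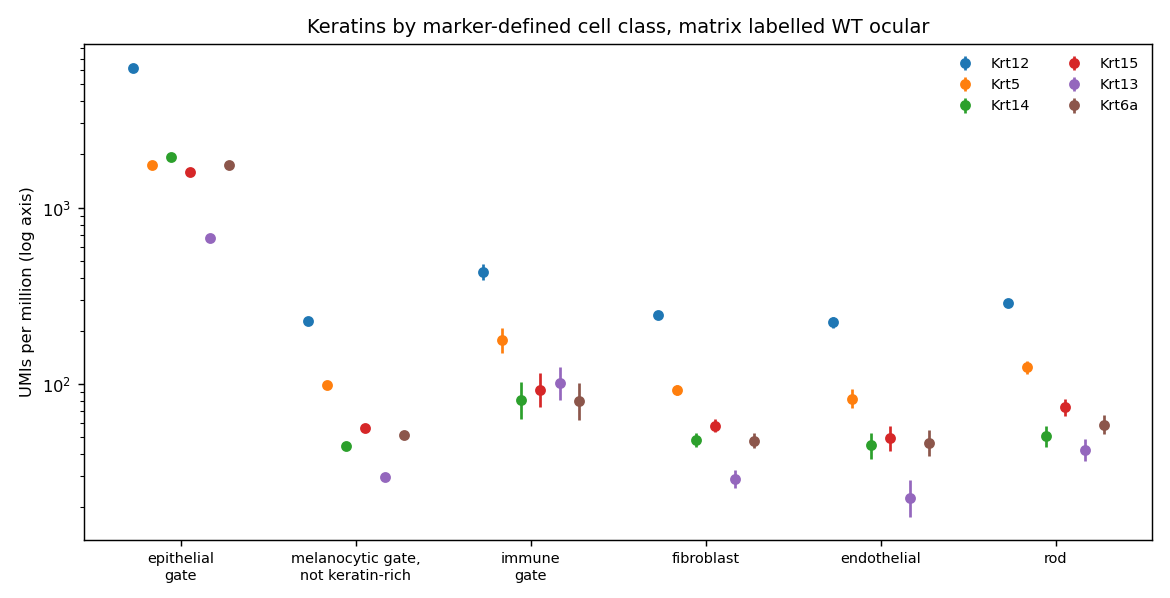
CPM (log axis) of 6 keratins by marker-defined cell class in the matrix labelled WT ocular, with exact Poisson 95% intervals. Krt12 stands at 6218 in epithelial-gated cells and between 222.5 and 432 in the other 5 classes.

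Krt80 had the most keratin UMIs in the melanocytic cells that were not keratin-rich, and in the immune cells, of the 3 alike matrices. Krt80 is a type II keratin found at cell margins of many epithelia (ENSMUSG00000037185, GRCm38 chromosome 15, from 101348315 to 101370162). In melanocytic cells that were not keratin-rich its level was 42.1 CPM (40.7 to 43.6) in KO skin, against 41.9 (40.3 to 43.5) in WT skin, and 51.6 (50.1 to 53.2) in KO ocular. The intervals of the skin matrices overlapped. Fibroblast-marked cells had 49.2, 45.4 and 45.2 CPM in that order of matrices and endothelial-marked cells 49.1, 48.9 and 34.1. These intervals overlapped that of the melanocytic cells, except in the endothelial-marked cells labelled KO ocular (28.8 to 40.0). From these values alone the melanocytic level is not told apart from background in the skin matrices. The cultured parental Melan-a cells had 647 and 648 normalised reads of Krt80, so they held the transcript in culture. The part of background in the tumour values was not tested. In the 72 T or NK-marked cells labelled KO ocular Krt80 had no UMI, with an upper bound of 16.9 CPM.

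Macrophage-marked cells held more Krt80. Their level was 101.7 CPM (70.0 to 143) in KO skin from 33 UMIs in 93 cells, against 114.6 (86.5 to 149) in WT skin from 56 UMIs in 126 cells, and 141 (120.4 to 165) in KO ocular from 163 UMIs in 132 cells. Neutrophil-marked cells had 100.7, 60.7 and 64.4 CPM. Thinned to 1000 UMIs, Krt80 was found in 12.8% of macrophage-marked cells labelled KO skin (95% exact binomial interval 6.56 to 21.7), 14.05% in WT skin (8.40 to 21.5) and 7.81% in KO ocular (3.81 to 13.9), whose median depths were 3008, 3279.5 and 7574.5 UMIs before thinning. In melanocytic cells, keratin-rich ones included, the thinned shares were 2.87% (2.56 to 3.21), 3.52% (3.11 to 3.98) and 4.61% (4.09 to 5.18), and in KO ocular the intervals of macrophage-marked and melanocytic cells overlapped. Immune cells that also passed the melanocytic gate are not in these values. With them the immune level was 57.3 (KO skin), 39.8 (WT skin) and 72.5 (KO ocular), against 132.5, 101.4 and 92.6 without, so the excess over melanocytic cells in WT skin rested on setting them apart. The other assay (WT ocular) had 11.3 CPM in melanocytic cells and 13.5 in immune cells.

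**Figure D4:**
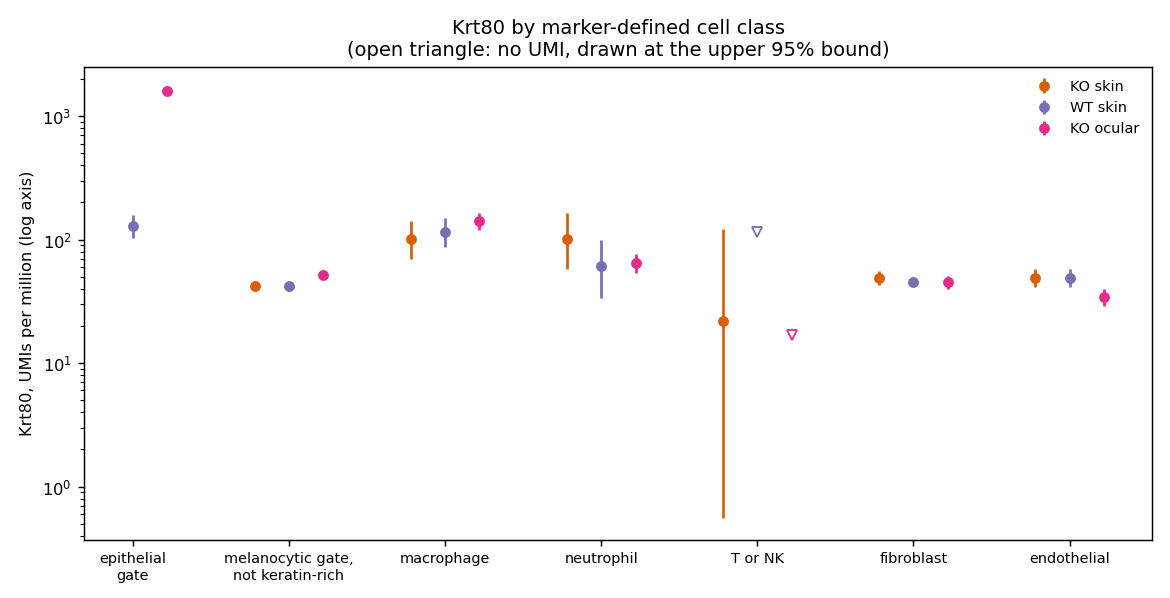
Krt80 in CPM (log axis) by marker-defined cell class in the matrices labelled KO skin, WT skin and KO ocular, with exact Poisson 95% intervals. Open triangles mark classes with no UMI, drawn at the upper bound. Macrophage-marked cells lie between 101.7 and 141, and melanocytic cells between 41.9 and 51.6.

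Krt10, the suprabasal type I keratin, was the next in melanocytic cells that were not keratin-rich. It had 6.30 CPM (5.75 to 6.88) in KO skin, against 12.0 (11.2 to 12.9) in WT skin, and 4.13 (3.72 to 4.58) in KO ocular. Fibroblast-marked cells had 6.57 (4.43 to 9.37), 10.7 (9.0 to 12.6) and 4.68 (3.06 to 6.86) CPM in the same order, and each interval overlapped that of the melanocytic cells of its matrix. The fibroblast levels stood in the same order of matrices, though their KO skin interval overlapped both others. From these values alone the melanocytic level is not told apart from background. The cultured parental Melan-a cells had 146 and 158 normalised reads of Krt10, and the part of background in the tumour values was not tested. Krt8, Krt28 and Krt7 were at 0.83, 0.65 and 0.63 CPM in KO skin melanocytic cells. The hair keratins Krt83 and Krt86 appeared in KO ocular immune cells, with 32 and 25 UMIs in 28 and 23 of 1173 cells. Of these, 22 and 25 lay in neutrophil-marked cells, and 9 of Krt83 in T or NK-marked cells. The genes are near copies of each other, so the split of their UMIs is uncertain.

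Few keratins were measured in the cultured cells, and 2 of the 5 listed members passed the filter on low values. Krt80 differed between the clones: it was higher in clone 2 and lower in clone 4 than in the parental cells. Clone 1 had 742 and 713 normalised reads in its 2 cultures and clone 2 had 965 and 1319, followed by clone 3 with 502 and 484 and clone 4 with 407 and 321.5. The parental cultures had 647 and 648. Both cultures of clones 1 and 2 lay above both parental cultures, and both of clones 3 and 4 below. On the deposited log2-like scale the differences were 0.13, 0.67, -0.30 and -0.62, each with an SE of 0.14. By limma with Benjamini-Hochberg adjustment over all 10803 genes tested, Krt80 rose in clone 2 (adjusted p = 0.00543) and fell in clone 4 (adjusted p = 0.00534), while clone 1 (0.702) and clone 3 (0.0992) did not pass. Such calls were common: clone 1 passed for 3.5% of all genes tested (1.15% higher, 2.35% lower), clone 2 for 26.1% (12.0% higher, 14.1% lower), clone 3 for 39.8% (19.9% higher, 20% lower) and clone 4 for 36.5% (19.3% higher, 17.2% lower). The 1 keratin of 2 called in clones 2 and 4 is read against those shares. The comparisons share the 2 parental cultures. The F test among the 4 clones gave an adjusted p of 0.000283 for Krt80, a test that 44.5% of genes passed. Taking each line as 1 unit leaves a single parental value against 4 clones. In that fit 0 of 10803 genes passed by limma and 0 by edgeR, with 671 genes (6.21%) at an unadjusted p under 0.05 by limma. Even the edited gene Bap1 missed (limma adjusted p = 0.735), so the fit says nothing of whether Krt80 (difference -0.03, SE 0.45) changed with the knockout as such.

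Krt10 was lower in both cultures of clones 2 and 3 than in the parental ones, but did not pass limma's test. Clone 1 had 178 and 142 normalised reads, clone 2 had 94.7 and 79.4, clone 3 had 97.2 and 92.4, and clone 4 had 166 and 99.6, against 146 and 158 in the parental cells. The groups overlapped in clones 1 and 4. The differences were 0.04, -0.38, -0.33 and -0.11 (SE 0.13 each), with limma adjusted p of 0.927, 0.0562, 0.0712 and 0.537, and the F test gave 0.0645. By edgeR on the recovered reads the fall in clone 2 passed (adjusted p = 0.0460, as for 25.7% of genes), and so did the difference among clones (adjusted p = 0.0451, as for 43.2%). Under quantile normalisation the differences shrank to -0.20 in clone 2 and -0.08 in clone 3 (limma adjusted p = 0.301 and 0.640). Fewer cells with the transcript and less of it per cell cannot be told apart in bulk RNA.

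The other 3 listed keratins had at most 21 whole reads in any library and were not tested. Krt17, the companion and stress keratin, had 7.36 and 13.5 normalised reads (clone 1), 7.08 and 16.9 (clone 2), 2.09 and 2.31 (clone 3) and none in either culture of clone 4, against 0.953 and 0.880 (parental). Krt28 had 5.15 and 15.8, 4.43 and 4.46, 1.05 and 1.16, and 9.18 and 5.04 in clones 1 to 4, against 8.58 and 8.80. Krt87 had 15.5 and 3.38, 13.3 and 5.35, 2.09 and 3.47, and 3.44 and 7.57, against 11.4 and 13.2. With no filter on low values, Krt17 passed limma in clone 2 (adjusted p = 0.0200) and Krt28 in clone 3 (adjusted p = 0.0482), both from few reads. Under that setting 26.1% of genes passed in clone 2 and 37.4% in clone 3.

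**Figure D5:**
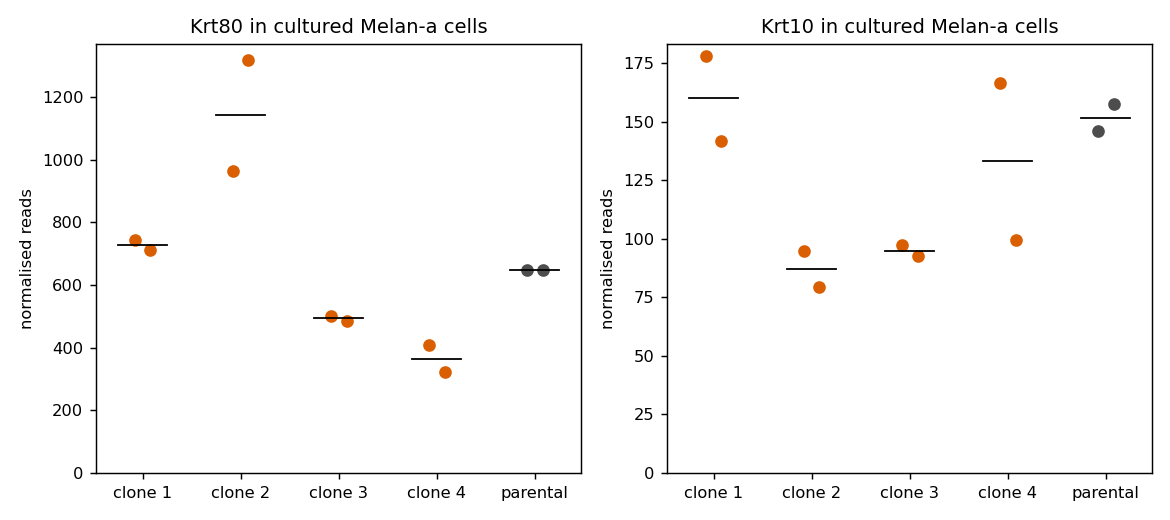
Normalised reads of Krt80 and Krt10 in cultured Melan-a cells: 2 points a line for the cultures and a bar at their mean, knockout clones 1 to 4 in orange and parental cells in grey. Krt80 runs from 321.5 to 1319 in the clones around the parental 647 and 648.

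Genes of other filaments and of junctions were also measured in the cultures. Of 18 genes listed for other intermediate filaments, which include the linker genes Plec and Eppk1, 9 were tested. Clone 1 had 1 that rose and 0 that fell, clone 2 had 2 and 2, clone 3 had 2 and 4, and clone 4 had 1 and 2. Plec was among the 9 and among those that fell in clone 3. The calls, 1, 4, 6 and 3 of 9, stand beside 3.5%, 26.1%, 39.8% and 36.5% of all genes tested. Their median differences were -0.01, 0.13, -0.36 and -0.05, against -0.02, 0.03, 0.01 and 0.04 over all genes tested. Vim, the vimentin gene, had 2738 and 3323 normalised reads in clone 4, against 19284 and 19675 in the parental cells (difference -2.62, limma adjusted p = 1.3e-05). It also fell in clones 2 and 3, by 0.83 and 0.67 on the log2-like scale. Des of the same list was lower in clones 2, 3 and 4 (differences -1.99, -0.86 and -2.26), and Bfsp2 in clone 3 (-0.58). The genes that rose were Lmnb2 in clones 1, 2 and 3 (0.46, 1.07 and 0.40), Lmna in clones 2 and 3 (0.82 and 0.91) and Nes in clone 4 (0.60). The list therefore moved in both directions. Of 15 desmosome genes 3 were tested, and 0, 1, 2 and 3 of them fell in clones 1 to 4 with none higher, beside 2.35%, 14.1%, 20% and 17.2% of all genes tested that fell. Jup, the junction protein plakoglobin, fell by 0.70, 0.88 and 1.38 in clones 2, 3 and 4 (limma adjusted p = 0.00267, 0.000389 and 2.1e-05). The stabilised scale shrinks differences of genes with few reads. By edgeR on the recovered reads the log2 fold changes of Jup were -1.13, -1.46 and -2.61. Of 22 epithelial adhesion genes and regulators 2 were tested, Cdh1 and Klf4. Cdh1 fell by 0.95 in clone 3 and by 0.83 in clone 4 (limma adjusted p = 0.000191 and 0.00046). It had 13.6 and 11.6 normalised reads in clone 3 and 21.8 and 16.4 in clone 4, against 96.2 and 123 in the parental cells. The edgeR log2 fold changes of Cdh1 were -3.14 in clone 3 and -2.55 in clone 4. Klf4, a transcription factor of barrier epithelia, rose by 0.60, 0.85 and 0.56 in clones 2, 3 and 4 (limma adjusted p = 0.032, 0.00423 and 0.0338).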

How the data were processed

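Single-cell files hold deposited UMI counts, unscaled; per the file headers Cell Ranger 8.0.0 made 3 of them and 7.0.0 the one labelled WT ocular. Bulk values are deposited log2-like numbers after variance stabilisation; per the labels, libraries were stranded and from polyadenylated RNA, and the submitters' processing notes name GRCm38 and mm10. The sources used here name no bulk aligner or counter. These values inverted to whole reads (100% within 0.01), 30.8 to 46.8 M a library, and the normalised reads printed are those reads scaled by library. The 10 libraries have 0 columns of other series. UMIs were summed per gate with exact Poisson (levels) and binomial (shares) 95% intervals, which cover counting error only. Cells were gated on 3 of 5 markers; melanocytic and immune cells exclude the epithelial gate and, unless stated, each other. No doublet caller was run. The macrophage, neutrophil, fibroblast, endothelial and rod classes (3 markers), the pigment class (4), the T and NK list (2) and the 1% keratin-rich limit were set after values had been seen. limma 3.58.1 with a mean-variance trend (R 4.3.3) was fitted to 10803 genes at least 1 above the lowest value of 6.61, over 5 groups, on line means, and as an F test among clones. edgeR 4.0.16 ran on the recovered reads. Calls used an adjusted p under 0.05. The tests were run on simulated data first. The labels call the cultures of a line biological replicates but do not say that they were grown apart, so p-values measure the spread between cultures, which may be technical. That spread was unequal, while limma pooled it over the 5 groups. A chi-square of a line's 2 cultures against read sampling had a median over genes of 0.954 in parental cells. In clones 1 to 4 it was 7.69, 7.56, 2.23 and 8.56. Named were the 10 keratins with the highest level per gate and 10 UMIs or more, those in the bulk table, and fixed layer markers; of the companion lists, the genes with the highest levels or the most calls. Krt83 and Krt86 and the lower companions were named after their values were seen. Members and lists were chosen with earlier results of these data known. Promoters are RefSeq's. Python 3.11.15 with numpy 2.4.6, scipy 1.17.1, pandas 2.3.3 and matplotlib 3.10.9 did the rest.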

Additional observations from a re-analysis of the deposited data

Results flagged for a closer look

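Krt80 differed among the 4 knockout clones themselves, with an adjusted p of 0.000283 in limma's F test over 10803 genes. It was above the parental level in clone 2 (965 and 1319 normalised reads) and below it in clone 4 (407 and 321.5), against 647 and 648 in the parental cells. Over the 4 clones' mean values, none of the 5 keratins in the table had a clone set apart by Dixon's criterion.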

How the results depend on the processing

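Of 89 recomputed bulk counts 71 stayed within 1.5 times and 18 moved. Of 150 recomputed values of single bulk keratins 132 kept direction and call, 15 newly passed and 3 turned sign. The keratin calls in clone 2 were 2 instead of 1 with no filter, with edgeR under TMM or RLE scaling, and with a replicate block, and 1 to 2 when cultures were left out in turn (2 without either culture of clone 1 or of clone 4). Clone 3 had 1 instead of 0 with no filter or with the replicate block, and 0 to 1 with cultures left out (1 without either culture of clone 4). The F test among clones called 2 instead of 1 with no filter, edgeR (TMM, RLE) or the replicate block, and 1 to 2 with cultures left out (2 without either culture of clone 4). Same-numbered cultures correlated at -0.13 to 0.73, above 0.1 in every pair of clones but clones 3 and 4 (-0.026) and below 0 in every pair with the parental cells, so the numbers were not taken to pair all lines. With the block Krt10 passed in clone 2 (limma adjusted p = 0.0348), clone 3 (0.0478) and the F test (0.0379). Krt10 turned sign in clone 4 under quantile normalisation (0.11), and with its own cultures left out ranged from -0.050 to 0.13 in clone 1 and from -0.30 to 0.072 in clone 4; the cause was not tested.

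Of 414 recomputed single-cell values 207 moved beyond counting error. A gate of 2 markers gave 13 (KO skin), 140 (WT skin), 109 (KO ocular) and 1592 (WT ocular) epithelial cells. A gate of 4 gave 30, 18 and 165 in the last 3, and leaving out cells in another gate 4, 11 and 120. Summed keratin levels in CPM, in WT skin, KO ocular and WT ocular, were 1476, 10297 and 6195 with 2 markers, 6969, 41452 and 24048 with 4, 16217, 32762 and 27733 without cells in another gate, and 11727, 33704 and 20270.1 without the top 5% of cells by UMIs. In WT ocular the level was 15541 with no cell filter and 21319 over genes shared by the matrices. KO skin had no gated cells and no level. Chosen after the data were seen, leaving out keratin-rich cells gave melanocytic levels of 53.8 (KO skin), 76.1 (WT skin), 89.2 (KO ocular) and 626 (WT ocular), against 53.8, 81.2, 268.5 and 720.4 with them. Depth limits the 33 to 163 Krt80 UMIs of macrophage-marked cells.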
